A study of Macaca fascicularis with 6 samples.

Results

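The IL-1 and inflammasome genes were followed across the lung cells of cynomolgus monkeys (Macaca fascicularis) with and without asthma induced by Ascaris suum. The set was chosen by name and holds 9 genes, IL1A, IL1B, IL1RN, IL1R1, IL1R2, IL18, IL18R1, NLRP3 and CASP1, among 28623 genes in the deposited count matrices, of which 21095 carry a symbol. Each of the first 8 had a single row with its symbol, while CASP1 was not analysed here because no row carries that symbol. The libraries came from 6 male monkeys labelled as 3 to 5 years old, with 1 droplet library per monkey and 3 monkeys per group. Monkeys of the asthma group (replicates 8, 10 and 11) were sensitized under the skin with A. suum antigen at 1 mg/mL together with an adjuvant and then challenged through the nose at 10 mg/mL, and monkeys of the control group (replicates 1, 2 and 3) were given saline. In week 11 the lungs were taken and dissociated with enzymes, after which red cells and dead cells were removed. No library of a female monkey was analysed here.

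IL-1 alpha and IL-1 beta are early cytokines of inflammation that signal through the same receptor, encoded by IL1R1, and switch on NF-kappa B targets such as neutrophil-attracting chemokines. IL-1 beta and IL-18 are made as inactive precursors, and the inflammasome, which NLRP3 builds with the adaptor PYCARD, activates caspase-1 to cut them. Brakes on the pathway are the receptor antagonist, encoded by IL1RN, and the decoy receptor, encoded by IL1R2. In the lung, macrophages and monocytes are known sources of IL-1 beta, and IL-18 acts with IL-12 on T and NK cells. Since cutting and release happen at the protein level, the RNA counts here speak only to transcripts. In the order of genes in the matrices, IL1R2, IL1R1, IL1RL2, IL1RL1, IL18R1 and IL18RAP follow one another, and IL1A and IL1B stand in a run with the IL36 genes and IL1RN.

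Unique molecular identifiers (UMIs) count each captured RNA molecule once. Totals per library were 40556102, 33210436 and 32240293 UMIs in control 1, 2 and 3 and 41184329, 41489879 and 29014556 in asthma 8, 10 and 11. After filtering, 24235 of 35133 barcodes remained, 4339, 3200 and 3902 cells of the control group and 4136, 4620 and 4038 of the asthma group. Clustering without the IL-1 pathway genes gave 11 classes of cells, named "-like" from fixed markers. They held 10140 T and NK-like, 3436 macrophage-like, 2307 stromal-like, 1775 monocyte-like, 1646 granulocyte-like and 888 B-like cells. The rest were 830 epithelial-like, 769 dendritic-like, 623 MC-like, 147 plasma-like and 75 mast-like cells. The name MC is that of the study, where it stands for mesenchymal cells. Its markers here include UPK3B, MSLN, ITLN1, WT1 and CALB2, which are known from mesothelium, so the name does not make these cells mesenchymal. A further 1599 cells in sub-clusters with markers of more than 1 class were set aside. Of the markers with a row, 12 of 12 were at least 2 times as high in T and NK-like cells as elsewhere, 11 of 11 in macrophage-like, 10 of 10 in dendritic-like, 12 of 12 in epithelial-like, 9 of 10 in granulocyte-like and 7 of 9 in monocyte-like cells. Since the classes were named from these markers, the counts describe the naming and do not test it. Granulocyte-like cells were shallow, with a median of 987.5 UMIs over the 6 library medians, against 18640.5 UMIs in macrophage-like cells.

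Some libraries stood apart before any comparison. Asthma 11 held 783 monocyte-like and 942 stromal-like cells, where the other 5 libraries held 95 to 307 and 127 to 378. Within the monocyte-like class, a sub-cluster led by CXCL3, THBS1 and EREG had 126 of its 136 cells from control 1, and a sub-cluster led by OLFM1 and THBS1 had 341 of its 352 cells from asthma 11. Among granulocyte-like cells, a sub-cluster led by PHYH had 310 of its 365 cells from control 2 and one led by ALPL 281 of its 332 from asthma 10. One led by SFTPC and EPAS1 made up 82.3% of granulocyte-like cells in asthma 11. The part of these sub-clusters in the granulocyte-like values was not tested. The name endothelial (EC)-like covers only the stromal-like sub-clusters led by ACE and EDNRB and by SEMA3G and TMEM88. EC-like cells made up 8.05%, 10.2% and 2.38% of stromal-like cells in control 1, 2 and 3 (12, 13 and 9 cells). In asthma 8, 10 and 11 they were 47.2%, 55.0% and 29.2% (176, 186 and 275 cells), so different sub-clusters hold this class in the 2 groups. A sub-cluster led by TAC1, ACKR1, INHBA and SELP, of which ACKR1 and SELP are known from venular endothelium, is left out of the name. It made up 13.4%, 10.2% and 3.97% against 12.9%, 10.7% and 5.73%. Values given below as outside EC-like cells still include it and the sub-clusters led by GASK1B and by MMRN1. Some sub-clusters kept in a class had marker genes of another class among their leading genes. In macrophage-like cells, one led by CCL17 and CLEC10A had more than 1 such gene of the same class. So had one led by S100A9 and S100A8 in monocyte-like cells. Only NLRP3 and IL18 in macrophage-like cells, and IL1B, NLRP3 and the IL-1 target list in monocyte-like cells, are also given without these sub-clusters. Others had a single such gene of a class and none from the list of their own class. These genes were SFTPC in granulocyte-like cells, C1QA in monocyte-like cells and IGKC, FCRLA, or FCER1A and LST1 in dendritic-like cells. Cell barcodes were shared by more than 1 library in 137 of 35133 cases, 75 of them among retained cells. Levels are given as CPM, the UMIs of a gene scaled by the UMIs of all genes in the same class and library. Each value is a single library. P-values of asthma against control measure the spread between 3 monkeys and 3 monkeys. Those between classes measure the spread of the differences within the 6 libraries.

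IL1B was carried by myeloid cells, IL1R1 by structural cells and granulocyte-like cells, IL18 by T and NK-like, MC-like, macrophage-like and dendritic-like cells and IL18R1 by T and NK-like and dendritic-like cells. For each gene, neighbouring classes in the order of mean log2(CPM + 1) were compared within libraries by a two-sided exact sign-flip permutation test. The order was taken from the same values, which fixes the direction of each pair and pairs the classes closest in level. Of 72 neighbouring pairs, 14 had p = 0.03125 in the exact test, the smallest that 6 libraries allow. No pair passed the adjustment over all 72, where the smallest adjusted p was 0.161. The order is therefore given below as levels with their spread.

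**Figure D1:**
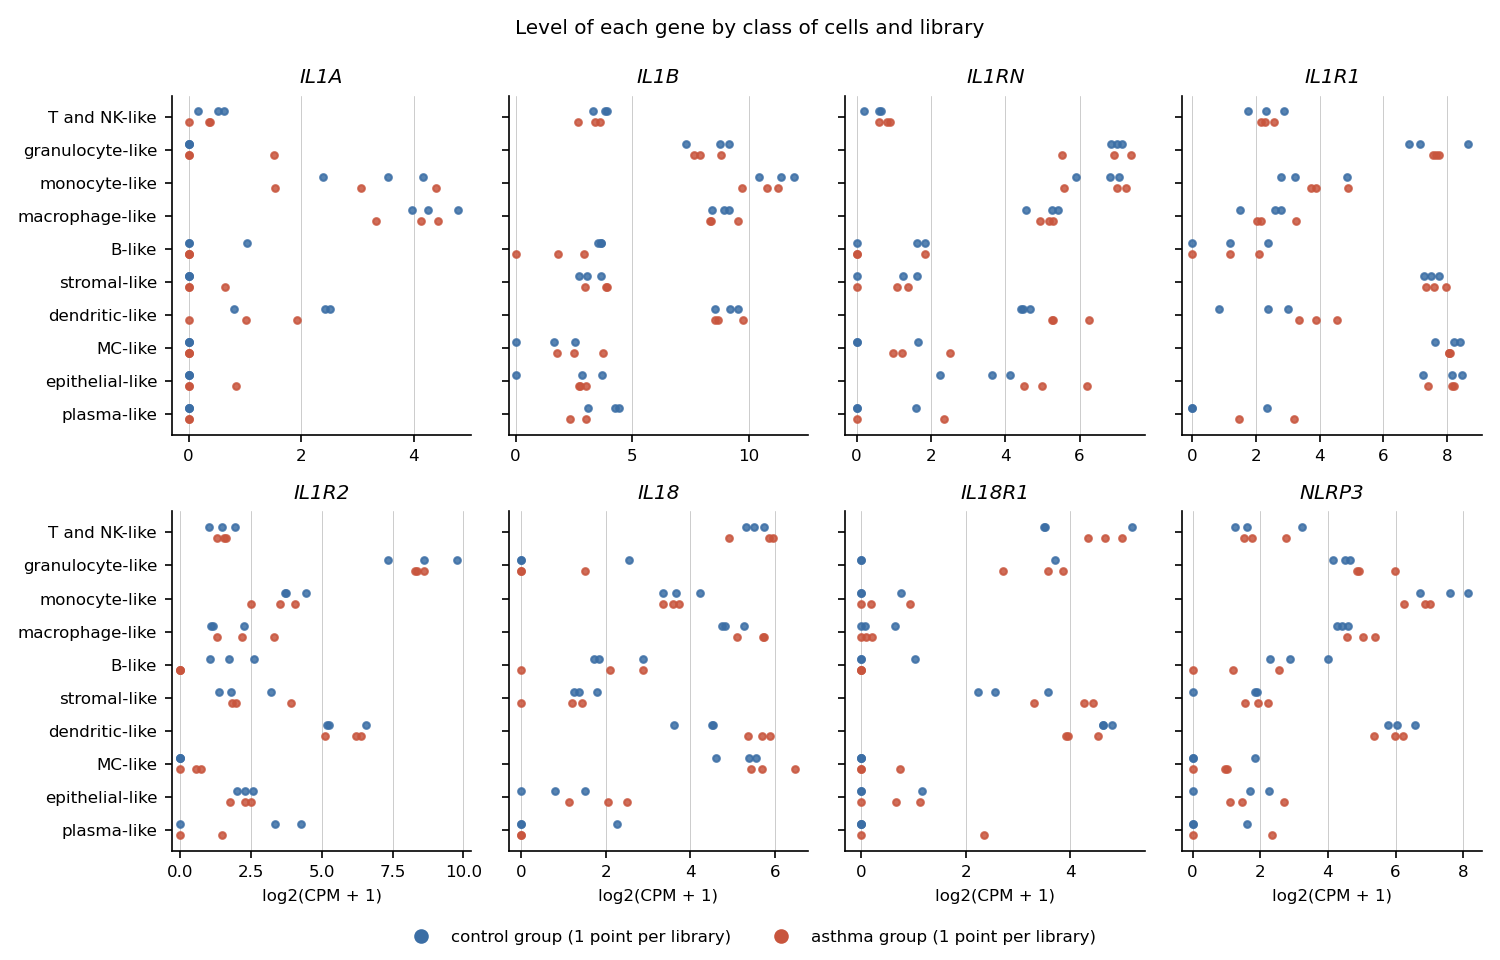
Level of each of the 8 genes, as log2(CPM + 1) on the horizontal axis, in 10 classes of cells. Each point is 1 library of the control or asthma group with at least 10 cells in the class. Within each library the IL1B point of monocyte-like cells lies to the right of those of the other classes, and points of the 2 groups overlap in most rows.

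IL1A encodes a ligand that is active without cutting by caspase-1 and can be released by dying cells. Its highest level was in macrophage-like cells, where control 1, 2 and 3 had 26.6, 14.6 and 18.0 CPM and asthma 8, 10 and 11 had 16.6, 20.5 and 9.02 CPM. The highest and the lowest value belonged to control 1 and asthma 11, and the groups overlapped. Macrophage-like cells held 81.7% of the IL1A UMIs of a library on average, with a range from 69.5% in control 2 to 92.3% in asthma 8. Monocyte-like cells had 10.2 ± 7.15 CPM (SD, n = 6 libraries), lower than macrophage-like cells in 6 of 6 libraries. MC-like cells had 0 IL1A UMIs, and B-like, epithelial-like, stromal-like and granulocyte-like cells had 1 each. At least 1 IL1A UMI was found in 12.1% to 27.8% of macrophage-like cells and in 0% to 0.441% of B-like cells, with median depths of 18640.5 and 4219.5 UMIs. After every cell was thinned to 1000 UMIs these shares were 0.648% to 2.37% and 0% to 0.0906%.

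IL1B, the main inflammatory ligand of this family, had its highest level in monocyte-like cells. There the 3 control libraries had 3896, 1365 and 2631 CPM and the asthma libraries 1739, 2422 and 820 CPM. Control 1 was highest and asthma 11 lowest, with overlap between them. The next classes were dendritic-like cells with 551 ± 207 CPM, macrophage-like cells with 460 ± 164 CPM and granulocyte-like cells with 337 ± 161 CPM (SD, n = 6). Monocyte-like cells were above dendritic-like cells, and dendritic-like above macrophage-like cells, in 6 of 6 libraries, while macrophage-like and granulocyte-like cells did not separate beyond their spread (p = 0.219, exact sign-flip permutation test). Granulocyte-like cells were in turn above T and NK-like cells, at 10.3 ± 3.08 CPM, in 6 of 6 libraries. IL1B UMIs were present in 84.3% to 94.8% of monocyte-like cells and in 0% to 4.69% of B-like cells, and with cells thinned to 1000 UMIs in 43.3% to 85.1% and 0% to 1.37%.

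Of the IL1B UMIs of a library, 44.2% on average lay in macrophage-like cells, the more numerous class over all libraries together, and 37.4% in monocyte-like cells. Macrophage-like cells held 53.8%, 30.3% and 28.9% in the control libraries and 54.4%, 74.2% and 23.6% in the asthma libraries. The order of the classes changed with the library. Monocyte-like cells led with 48.2% in control 2, 36.4% in control 3 and 65.3% in asthma 11, and held 10.6% in asthma 10. Within the classes, classical monocyte-like cells had 1847 CPM of IL1B, pooled over libraries, and nonclassical monocyte-like cells 720 CPM. Of the 770 classical monocyte-like cells, 418 lay in the sub-cluster led by S100A9 and S100A8, and the level is not given without it. Among macrophage-like cells, a sub-cluster of 547 cells led by CCL17 and CLEC10A had 962 CPM. Its leading genes held the dendritic markers CLEC10A and CPVL and the interstitial macrophage marker F13A1, but none from the list of the macrophage class. A sub-cluster of 415 cells led by PLA2G2D and with FOLR2 and TREM2 among its leading genes had 327 CPM and alveolar macrophage-like cells 197 CPM.

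IL1RN, the antagonist that occupies IL1R1 without signalling, was highest in granulocyte-like cells with 119 ± 41.0 CPM and monocyte-like cells with 105 ± 42.7 CPM (SD, n = 6), which did not separate beyond their spread (p = 0.406, exact sign-flip permutation test). Granulocyte-like cells had 114, 128 and 141 CPM in control 1, 2 and 3 and 167, 121 and 44.9 CPM in asthma 8, 10 and 11. Asthma 11 was the lowest of the 6 and asthma 8 the highest. Macrophage-like, dendritic-like and epithelial-like cells followed with 33.9, 36.1 and 26.2 CPM. In MC-like, stromal-like, B-like, plasma-like and T and NK-like cells the mean was at most 1.52 CPM. The epithelial-like signal was not spread over the class. AT1-like cells, the thin cells of the alveolar wall, had 184 CPM pooled over libraries, against 2.07 CPM in AT2-like, 2.74 CPM in basal-like and 3.36 CPM in club-like cells.

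The balance of antagonist and ligand was measured as the ratio of IL1RN to IL1B UMIs. In monocyte-like cells it was 0.0341, 0.0431 and 0.0428 in the control libraries and 0.0878, 0.0530 and 0.0568 in the asthma libraries. All 3 asthma libraries were above all 3 control libraries, a log2 difference of 0.69 between means (SD 0.39 in the asthma group and 0.19 in the control group). An exact permutation test, two-sided over 20 assignments, gave p = 0.1, the smallest that 3 against 3 allow, and p = 0.3 after adjustment over 3 classes. With a mitochondrial maximum of 10% the log2 difference was 0.16. Macrophage-like cells had ratios of 0.0746, 0.0662 and 0.0765 against 0.119, 0.0405 and 0.107, with asthma libraries on both sides of the control libraries (log2 difference 0.15, p = 1, exact permutation test). Granulocyte-like cells had 0.209, 0.817 and 0.342 against 0.710, 0.609 and 0.106, and overlapped as widely (log2 difference -0.12, p = 0.9, exact permutation test).

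IL1R1, the signalling receptor, was high in 4 classes, among which no neighbouring pair in the order separated beyond its spread. These were MC-like cells with 271 ± 45.4 CPM, epithelial-like with 256 ± 79.8 CPM, granulocyte-like with 209 ± 102 CPM and stromal-like cells with 191 ± 35.6 CPM (SD, n = 6). Pairs that were not neighbours were not tested, and MC-like cells were above stromal-like cells in 5 of 6 libraries. Stromal-like cells were above the next class, monocyte-like cells at 16.2 ± 9.87 CPM, in 6 of 6 libraries. At least 1 IL1R1 UMI was found in 73.3% to 86.8% of MC-like cells and in 0% to 1.44% of B-like cells, at median depths of 8656.5 and 4219.5 UMIs, and after thinning to 1000 UMIs in 16.6% to 26.9% and 0% to 0.428%. Among epithelial-like cells, AT2-like cells, which make surfactant, led with 381 ± 40.5 CPM over 6 libraries, followed by club-like cells with 266 ± 40.2 CPM over 4, basal-like cells with 87.4 ± 28.2 CPM over 5 and AT1-like cells with 48.3 ± 24.5 CPM over 4.

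Stromal-like cells were uneven too. A sub-cluster of 186 cells led by TAC1, ACKR1, INHBA and SELP, of which ACKR1 and SELP are known from venular endothelium, had 595 CPM of IL1R1. Its libraries ranged from 381 CPM in asthma 11 to 937 CPM in control 2. Fibroblast (Fib)-like cells had 149 CPM and EC-like cells 121 CPM, each pooled over libraries. A sub-cluster of 158 cells led by COX4I2, HIGD1B and NOTCH3, genes known from pericytes, had 67.4 CPM from 24 UMIs, and one of 70 cells led by ACTG2 and CNN1, genes of contractile smooth muscle, 26.6 CPM from 5 UMIs. T and NK-like cells as a class had 4.19 ± 1.38 CPM. Within them, 93 regulatory T-like cells stood at 96.7 CPM, from 39 UMIs, against 13 CPM in CD4 T-like and 0.919 CPM in NK-like cells. Regulatory T-like cells of control 1, 2 and 3 held 12, 9 and 5 IL1R1 UMIs and those of asthma 8, 10 and 11 held 0, 11 and 2, in 9 to 21 cells per library.

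IL1R2, the decoy receptor that binds IL-1 without signalling, was highest in granulocyte-like cells. Control libraries had 884, 160 and 391 CPM and asthma libraries 385, 312 and 328 CPM. Control 1 was far above and control 2 below all asthma libraries, which lay close together. Granulocyte-like cells were above dendritic-like cells, at 59.4 ± 26.8 CPM, in 6 of 6 libraries, and these in turn above monocyte-like cells, at 12.6 ± 5.36 CPM, in 6 of 6. UMIs of IL1R2 were found in 14.2% to 46.1% of granulocyte-like cells, with a median depth of 987.5 UMIs, and in 0% to 1.2% of B-like cells, with 4219.5 UMIs. Thinning to 1000 UMIs left 837 of 1646 granulocyte-like cells, with shares of 13.2% to 50.3% against 0% to 0.511%. Among dendritic-like cells the highest sub-cluster was one of 35 cells led by UBD, CCL22, LAMP3 and FSCN1, genes known from migratory dendritic cells, with 217 CPM.

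IL18 encodes the other cytokine that caspase-1 cuts. It was found at similar levels in T and NK-like cells with 47.3 ± 12.1 CPM, MC-like cells with 48.5 ± 21.2 CPM, macrophage-like cells with 38.2 ± 11.7 CPM and dendritic-like cells with 34.1 ± 18.5 CPM (SD, n = 6), and no neighbouring pair among these separated beyond its spread. T and NK-like cells had 44.5, 52.4 and 38.9 CPM in control 1, 2 and 3 and 61.6, 57.1 and 29.4 CPM in asthma 8, 10 and 11. The asthma libraries lay on both sides of the control libraries. UMIs of IL18 were found in 8.57% to 19.0% of T and NK-like cells and in 0% to 0.535% of granulocyte-like cells at median depths of 3517.25 and 987.5 UMIs. At 1000 UMIs per cell the shares were 2.76% to 5.88% and 0% to 0.342%. In the macrophage-like class, the sub-cluster led by PLA2G2D had 84.6 CPM pooled over libraries, the sub-cluster led by CCL17 and CLEC10A 81.2 CPM and alveolar macrophage-like cells 23.4 CPM. A sub-cluster of 98 cells led by STAB1 and LYVE1 ranged from 108 CPM in control 3 to 234 CPM in asthma 8, over 5 libraries with 3 to 32 of its cells each. A sub-cluster of 67 cells led by ITM2C and HPGDS, with 51 cells from asthma 11, had 105 CPM in that library.

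IL18R1 encodes the chain that binds IL-18, and 60.2% of its UMIs in a library lay in T and NK-like cells on average, with a range from 36.9% to 76.0%. In control 3, the lowest, dendritic-like cells held more, 48.6%. T and NK-like cells had 10.5, 35.1 and 10.3 CPM in the control libraries and 19.2, 24.5 and 30.7 CPM in the asthma libraries. Control 2 was the highest of all and the other 2 control libraries the lowest. Dendritic-like cells had a mean of 20.8 ± 5.26 CPM and stromal-like cells 11.2 ± 6.88 CPM (SD, n = 6). UMIs were found in 3.2% to 13% of T and NK-like cells and in 0% to 1.38% of macrophage-like cells, which were the deeper of the pair (3517.25 and 18640.5 UMIs), and at 1000 UMIs in 1.05% to 3.63% and 0% to 0.0679%. Regulatory T-like cells had 102 CPM, CD4 T-like cells 34.1 CPM and NK-like cells 4.59 CPM, pooled over libraries. In dendritic-like cells the highest level was 123 CPM in a sub-cluster of 62 cells with PTCRA, LILRA4 and IRF7 among its leading genes, which are known from plasmacytoid dendritic cells.

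NLRP3, the sensor that starts the inflammasome, followed myeloid cells. Monocyte-like cells had 283, 105 and 194 CPM in control 1, 2 and 3 and 128, 115 and 75.1 CPM in asthma 8, 10 and 11. Control 2 was below asthma 8 and asthma 10, so the groups overlapped. Dendritic-like cells had 64.7 ± 18.1 CPM, below monocyte-like cells in 6 of 6 libraries. Granulocyte-like cells with 30.4 ± 16.5 CPM and macrophage-like cells with 26.2 ± 8.38 CPM did not separate beyond their spread (SD, n = 6, p = 0.625, exact sign-flip permutation test). NLRP3 UMIs were present in 37.9% to 57.1% of monocyte-like and in 0% to 6.77% of B-like cells, and at 1000 UMIs in 6.95% to 21.3% and 0% to 1.70%. Classical monocyte-like cells had 152 CPM and nonclassical ones 26.0 CPM, pooled over libraries. In macrophage-like cells the pooled level was 69.3 CPM in the sub-cluster led by CCL17 and CLEC10A, 51.6 CPM in the one led by PLA2G2D and 9.62 CPM in alveolar macrophage-like cells.

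The genes whose pattern was most like that of each member were taken by Pearson correlation of log2(CPM + 1) over 60 library-by-class sums, among 12228 genes. The points share libraries and depth, so the values are a description. IL1B was the closest gene to NLRP3 (r = 0.90). LYZ (r = 0.92), a monocyte and macrophage lysozyme, was among the 3 closest to IL1B. The macrophage receptor CD163 (r = 0.89) and the complement gene C1QB (r = 0.88) led for IL1A. LAMC1, a basement membrane laminin chain, led for IL1R1 (r = 0.88), ADGRE3 for IL1R2 (r = 0.85), TKT for IL1RN (r = 0.88), GPX4 for IL18 (r = 0.75) and ANKRD35 for IL18R1 (r = 0.72). NAIP, which encodes another inflammasome sensor, was the second closest to IL1R2 (r = 0.84).

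Asthma was compared with control in each class by the edgeR quasi-likelihood test on summed counts, fitted over all genes of the class, and a gene counted as a DEG where its p, adjusted by Benjamini-Hochberg, was under 0.05 and its log2 fold change was over 0.25 in size. Members of the set passed the filter on low counts in 38 combinations of gene and class. None of the 38 was a DEG by edgeR and none by DESeq2, where 0.282% of all genes tested in the classes were DEGs by edgeR and 0.899% by DESeq2. At an unadjusted p under 0.05 there were 6, with 4 higher and 2 lower in the asthma group, against 8.01% of all genes. In 5 of the 38 the libraries of the groups did not overlap, against 14.8% of all genes. The share without overlap was close to that of all genes. The share at an unadjusted p under 0.05 was above it, and 4 of these 6 were in dendritic-like cells. Over all cells of a library, none of 8 members was a DEG by edgeR, where 0.0839% of genes were, and IL1R1 was 1 by DESeq2, which called 4.52% of genes. The single member at an unadjusted p under 0.05 was IL1R1, where 12.9% of all genes were.

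**Figure D2:**
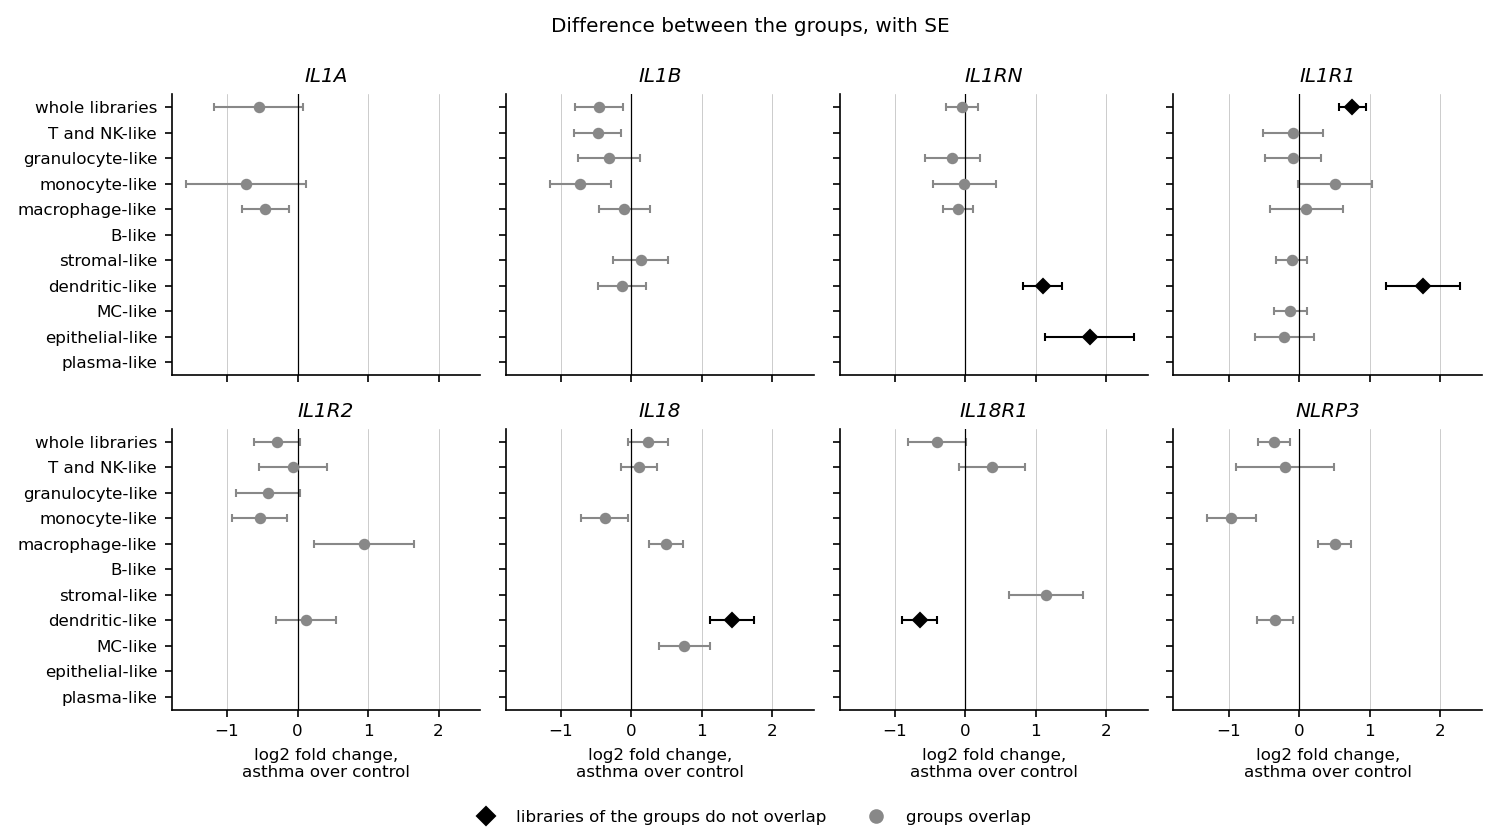
Log2 fold change of asthma over control (horizontal axis) with its SE from the edgeR fit, for each gene in whole libraries and in each class where it passed the filter. Black diamonds mark the 6 results whose libraries do not overlap between groups, which are IL1R1 in whole libraries, IL1RN, IL1R1, IL18 and IL18R1 in dendritic-like cells and IL1RN in epithelial-like cells, and none of the points shown is a DEG.

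Dendritic-like cells held 4 of the 5 class results without overlap. Of 7 members tested there, 4 did not overlap, where 13.2% of the genes tested in the class did not, and 4 had an unadjusted p under 0.05, where 7.71% of genes had. IL18 stood at 22.0, 22.1 and 11.2 CPM in control 1, 2 and 3 and at 40.0, 58.4 and 50.7 CPM in asthma 8, 10 and 11. Every asthma library was above every control library, with a log2 fold change of 1.43 (SE 0.31) and an adjusted p of 0.502 by edgeR. IL1RN had 24.2, 20.5 and 21.1 CPM against 37.4, 75.0 and 38.2 CPM, a log2 fold change of 1.09 (SE 0.28, edgeR adjusted p = 0.505). Asthma 10 was well above the other 5 libraries, and without it the log2 fold change was 0.72. IL1R1 had 7.14, 0.790 and 4.23 CPM against 22.2, 13.9 and 9.30 CPM, a log2 fold change of 1.76 (SE 0.53, edgeR adjusted p = 0.505) that rested on 75 UMIs, 1 of them in control 2. IL18R1 went the other way with 23.6, 23.7 and 26.8 CPM against 14.2, 22.2 and 14.5 CPM, a log2 fold change of -0.65 (SE 0.25, edgeR adjusted p = 0.592). With no filter on low counts, edgeR gave adjusted p-values of 4.65e-05 for IL18, 0.00523 for IL1RN and 0.0174 for IL1R1. In that setting 1.36% of the genes in dendritic-like cells were DEGs, and 0.886% over all classes. With the pathway genes kept for clustering, the log2 fold change was 0.64 for IL18 and -0.15 for IL18R1, and with at least 200 genes per cell it was 0.68 for IL1R1.

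The make-up of the dendritic-like class moved with these values. A sub-cluster of 204 cells was led by CCL17 and FCER1A, genes of conventional dendritic cells. It first clustered with monocyte-like cells and was moved to this class by its markers. It made up 23.6%, 30.3% and 12.6% of dendritic-like cells in control 1, 2 and 3 and 37.2%, 54.1% and 48.8% in asthma 8, 10 and 11. All 3 asthma libraries were above all 3 control libraries. IL1RN lay mostly in that sub-cluster, and the other dendritic-like cells had at most 7.21 CPM in any library. Among those others, a sub-cluster of 92 cells led by FCER1A and LST1 had 22.3 CPM from 24 UMIs, 9 in control 1 and 11 in control 3. Within the sub-cluster led by CCL17 and FCER1A, IL1RN was at 78.2, 71.0 and 142 CPM against 96.9, 130 and 70.8 CPM. The groups overlapped widely, with a log2 fold change of -0.039 (SE 0.30, edgeR adjusted p = 0.994). IL18 within it was at 59.8, 65.5 and 38.1 CPM against 94.4, 78.5 and 91.1 CPM. The groups did not overlap for IL18, as for 470 of the 4432 genes tested in this sub-cluster. The log2 fold change was 0.67 (SE 0.26, edgeR adjusted p = 0.977). IL1R1 was not tested within the sub-cluster, where its libraries overlapped with 13.8, 2.73 and 12 CPM against 32.3, 17.2 and 12.1 CPM. IL18R1 lay mainly in the other dendritic-like cells, where it had 30.3, 31.1 and 29.5 CPM against 20.8, 51.3 and 19.0 CPM, with asthma 10 above and the other asthma libraries below the control libraries.

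IL1RN showed the same kind of pattern in epithelial-like cells. Control 1, 2 and 3 had 16.6, 11.5 and 3.74 CPM and asthma 8, 10 and 11 had 72.4, 21.9 and 30.9 CPM. Asthma 8 was the highest, and no control library reached the lowest asthma library. The log2 fold change was 1.76 (SE 0.63) with an edgeR adjusted p of 0.659, and 13% of the genes tested in the class had groups without overlap. It was 2.91 without control 1 and 1.16 without control 3. AT1-like cells made up 11.4%, 12.9% and 2.34% of epithelial-like cells in the control libraries (16, 4 and 3 cells) and 61.3%, 17.9% and 28.4% in the asthma libraries (95, 30 and 59 cells). Within AT1-like cells IL1RN was at 221, 121 and 219 CPM against 164, 220 and 198 CPM, with the groups overlapping. Outside them no library exceeded 4.55 CPM. Measured over epithelial-like cells, IL1R1 did not separate the groups, with 355, 283 and 151 CPM against 168, 281 and 298 CPM.

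**Figure D3:**
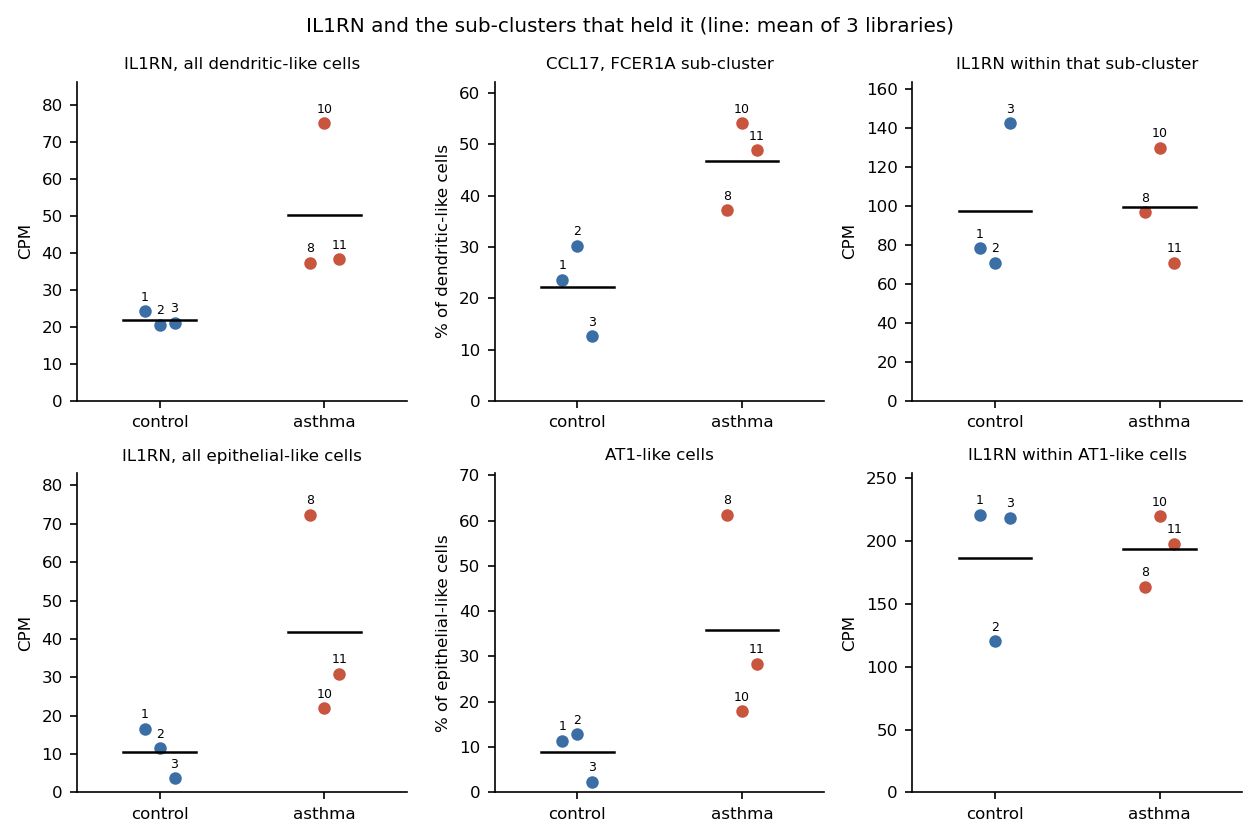
IL1RN in CPM over all dendritic-like (top row) and epithelial-like cells (bottom row), the share of each class in the CCL17 and FCER1A sub-cluster or in AT1-like cells, and IL1RN in CPM within those cells. Each numbered point is 1 library and the line is the mean of 3. The groups separate in the left and middle panels and overlap in the right panels, where control values rest on 3 to 42 cells per library.

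Over whole libraries, IL1R1 was the member that separated the groups. It had 35.0, 21.4 and 32.6 CPM in control 1, 2 and 3 and 58.1, 49.3 and 59.0 CPM in asthma 8, 10 and 11. Every asthma library was above every control library, with a log2 fold change of 0.75 (SE 0.19). Groups did not overlap, in either direction, for 19.0% of all genes. The adjusted p was 0.229 by edgeR and 0.0258 by DESeq2. In sums over a library, more cells of a type and more RNA per cell cannot be told apart, but the classes can be read separately. Stromal-like, MC-like and epithelial-like cells together made up 7.37%, 6.38% and 14.2% of control cells and 19.2%, 15.3% and 29.2% of asthma cells. They held 67.7%, 59.4% and 78.1% of IL1R1 UMIs in the control libraries and 82.5%, 81.1% and 71.4% in the asthma libraries. Within these classes the groups overlapped. Stromal-like cells had 215, 153 and 179 CPM of IL1R1 in the control libraries and 248, 193 and 160 CPM in the asthma libraries. MC-like cells of asthma 8, 10 and 11 had 269, 266 and 267 CPM, inside the control range of 196 to 335 CPM.

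**Figure D4:**
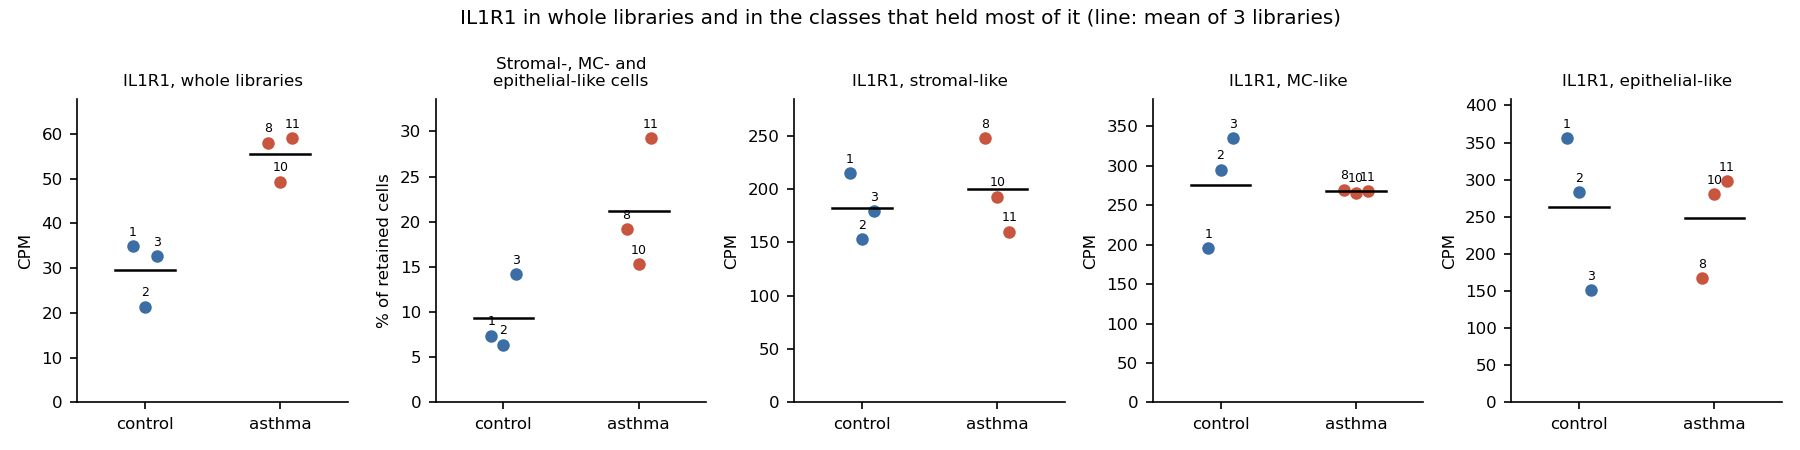
IL1R1 in CPM over whole libraries, the percentage of retained cells that were stromal-like, MC-like or epithelial-like, and IL1R1 in CPM within each of these classes. Each numbered point is 1 library and the line is the mean of 3. The groups separate in the first 2 panels and overlap in the last 3.

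In monocyte-like cells both IL1B and NLRP3 had lower means in the asthma group, and neither was a DEG. The log2 fold change was -0.72 (SE 0.43, adjusted p = 0.776) for IL1B and -0.96 (SE 0.35, adjusted p = 0.644) for NLRP3 by edgeR, from the library values given above. With each library left out in turn, the log2 fold change of IL1B ranged from -1.13 without asthma 10 to -0.33 without control 1, and was -0.38 without asthma 11. That of NLRP3 ranged from -1.28 without control 2 to -0.59 without control 1. The sub-cluster led by CXCL3, THBS1 and EREG, 54.5% of the monocyte-like cells of control 1, had the highest pooled levels of the class, 4841 CPM of IL1B and 401 CPM of NLRP3. With that sub-cluster left out, IL1B was at 2708, 1368 and 2648 CPM in the control libraries and 1732, 2257 and 804 CPM in the asthma libraries, and the log2 fold changes were -0.53 (SE 0.38) for IL1B and -0.53 (SE 0.29) for NLRP3. The sub-cluster led by S100A9 and S100A8, genes that granulocytes also carry, made up 70.6% of the monocyte-like cells of control 3 and 0.383% of those of asthma 11, and without it the log2 fold changes were -0.72 (SE 0.48) and -0.95 (SE 0.59). Of the 783 monocyte-like cells of asthma 11, the lowest library for both genes, 341, 215 and 208 lay in sub-clusters led by OLFM1, by PADI4 and MS4A7 and by SORBS3, which held 352, 226 and 213 cells over all libraries. The part of these sub-clusters in the values was not tested. The other 5 members tested here, IL1A, IL1R2, IL18, IL1RN and IL1R1, had log2 fold changes from -0.73 to 0.51, with overlap. With no filter on low counts the adjusted p by edgeR was 0.0150 for IL1B and 4.35e-04 for NLRP3, and 1.12% of the genes in the class were DEGs.

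**Figure D5:**
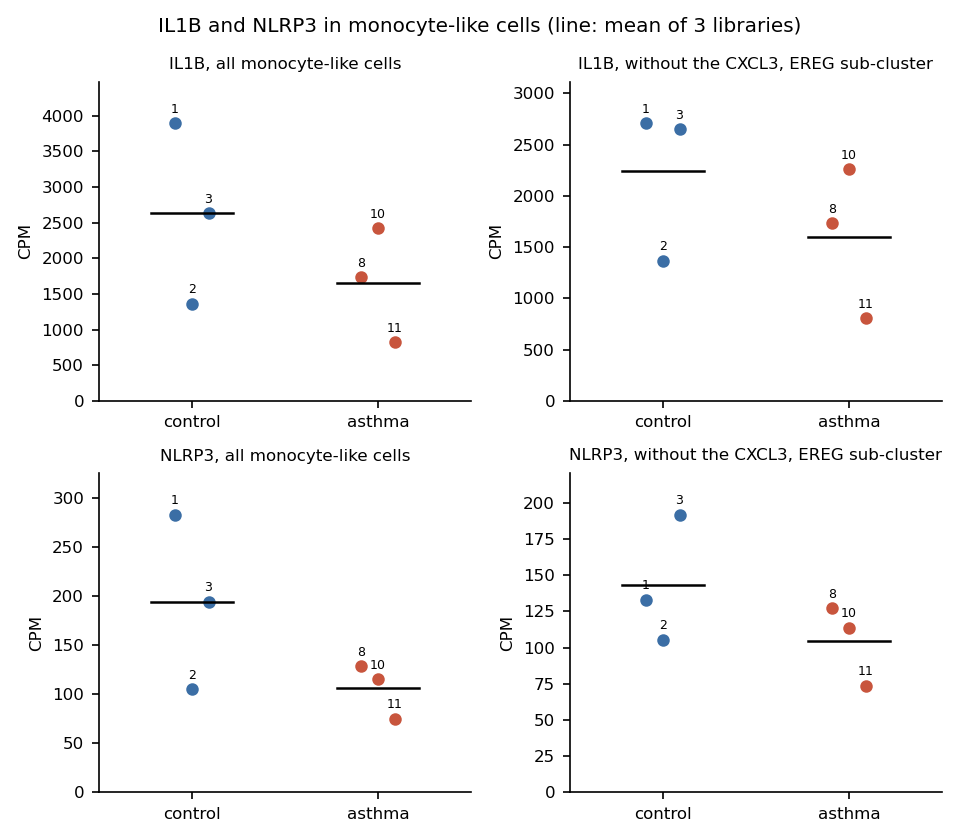
IL1B (top) and NLRP3 (bottom) in CPM in all monocyte-like cells and without the sub-cluster led by CXCL3 and EREG. Each numbered point is 1 library and the line is the mean of 3. Control 1 has the highest value in both left panels, and the groups overlap in all 4 panels.

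In macrophage-like cells, 7 members were tested and the groups overlapped for each. NLRP3 had 23.4, 18.4 and 20.5 CPM in control 1, 2 and 3 and 22.8, 40.6 and 31.6 CPM in asthma 8, 10 and 11, a log2 fold change of 0.50 (SE 0.24, edgeR adjusted p = 0.869). Asthma 8 fell inside the control range and the other asthma libraries above it. IL18 had 26.1, 37.5 and 27.4 CPM against 33.7, 52.1 and 52.7 CPM, a log2 fold change of 0.49 (SE 0.24, edgeR adjusted p = 0.882), and only asthma 8 was below a control library. IL1A had a log2 fold change of -0.45 (SE 0.34, edgeR adjusted p = 0.892). IL1R2 had 3.71, 1.11 and 1.23 CPM against 1.46, 3.51 and 8.86 CPM, a log2 fold change of 0.94 (SE 0.71, edgeR adjusted p = 0.896) that was 0.16 without asthma 11, and IL1B, IL1RN and IL1R1 had log2 fold changes from -0.10 to 0.10. Without asthma 10 the log2 fold change of NLRP3 was 0.24. That of IL1A was -0.19 without control 1, -0.19 without asthma 11 and -0.76 without asthma 10. The sub-clusters of this class were unevenly spread over libraries. One led by EREG had 503 of its 525 cells from control 1 and held 311 of the 472 IL1A UMIs in macrophage-like cells of that library. One led by IFI27 and IFIT1 had 285 of its 305 cells from asthma 10. They made up 51.3% and 33.3% of macrophage-like cells in those libraries, and their part in the IL1A, NLRP3 and IL18 values was not tested. The sub-cluster led by PLA2G2D, with a higher pooled IL18 level than alveolar macrophage-like cells, made up 2.24%, 8.65% and 10.2% of macrophage-like cells in the control libraries and 7.35%, 31.7% and 4.69% in the asthma libraries. Within it IL18 was at 47.9, 119 and 81.0 CPM against 93.2, 81.9 and 91.4 CPM, with overlap. The sub-clusters led by STAB1 and LYVE1 and by ITM2C and HPGDS, described above for IL18, made up 7.90% and 12.6% of macrophage-like cells in asthma 11. Each was at most 3.32% in any other library. In the sub-cluster led by CCL17 and CLEC10A, NLRP3 was at 69.9, 66.1 and 66.6 CPM against 48.2, 85.3 and 69.6 CPM, also with overlap. IL1A there was at 24.3, 13.5 and 13.3 CPM against 9.03, 10.5 and 3.03 CPM, without overlap, as for 12.1% of genes in that sub-cluster (log2 fold change -1.41, SE 0.48, edgeR adjusted p = 0.602). With the sub-cluster left out of the class, NLRP3 was at 17.5, 13.5 and 14.5 CPM in the control libraries and 21.1, 37.3 and 21.3 CPM in the asthma libraries, a log2 fold change of 0.71 (SE 0.27, edgeR adjusted p = 0.782). IL18 was then at 20.6, 31.0 and 18.6 CPM against 31.4, 50.8 and 40.7 CPM, a log2 fold change of 0.69 (SE 0.28, edgeR adjusted p = 0.8001). Both genes were then without overlap, as were 14.4% of genes in these cells.

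Of the remaining combinations, IL18R1 in stromal-like cells had 11, 4.93 and 3.68 CPM in the control libraries and 18.2, 20.5 and 8.96 CPM in the asthma libraries, a log2 fold change of 1.14 (SE 0.52, edgeR adjusted p = 0.277) from 107 UMIs. Asthma 11 lay below control 1, and without control 3 the log2 fold change was 0.70. Outside EC-like cells IL18R1 had 11.5, 5.10 and 3.71 CPM against 17.5, 18.3 and 6.23 CPM (log2 fold change 0.92, SE 0.62, edgeR adjusted p = 0.664). These cells still hold the sub-cluster led by TAC1, ACKR1, INHBA and SELP, with 43 of the 107 UMIs. Its libraries had 29.5, 43.1 and 73.4 CPM against 55.0, 61.1 and 13.1 CPM, with overlap. EC-like cells had 19.7, 22.9 and 18.1 CPM in the asthma libraries and 0 IL18R1 UMIs in the control libraries, where so few cells allow up to 83.6, 113 and 213 CPM. In MC-like cells IL18 had 45.9, 41.1 and 23.6 CPM against 87.5, 50.6 and 42.2 CPM, a log2 fold change of 0.75 (SE 0.36, edgeR adjusted p = 0.999), and asthma 11 lay between control 1 and control 2. It was 0.29 without asthma 8 and 0.45 without control 3. In granulocyte-like cells IL1R2, IL1B, IL1RN and IL1R1 were tested, with log2 fold changes from -0.42 to -0.09 and the groups overlapping for each. In T and NK-like cells IL1B, NLRP3, IL1R1, IL1R2, IL18 and IL18R1 were, with log2 fold changes from -0.48 to 0.37, likewise. With single libraries left out, that of IL18R1 ranged from 0.05 to 1.23 and that of NLRP3 from -0.96 to 0.94. The smallest edgeR adjusted p of IL18R1 in these fits was 0.357, without control 2. No member passed the filter in B-like or plasma-like cells, and mast-like cells had too few cells per library for a test.

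The other genes of the pathway were described as a list of 37, of which 34 had a row. These include the co-receptors IL1RAP and IL18RAP, the binding protein IL18BP, sensors such as NLRC4, NAIP and AIM2, the adaptors PYCARD and MYD88, the pore-former GSDMD and the kinases of the IRAK family. In the classes, none of 146 tests was a DEG by edgeR or DESeq2, and 12 had an unadjusted p under 0.05, 7 higher and 5 lower, close to the 8.01% of all genes. In whole libraries none of 28 was, by either tool, with 1 at an unadjusted p under 0.05 (CASP8, lower), where 12.9% of all genes were. The median log2 fold change of the list was 0.24 in stromal-like cells, where 14 of 17 genes had a higher fitted level in the asthma group and the median of all genes tested was 0.01. Stromal-like cells were also the class with the most DEGs, 2.02% of all genes, and with groups that did not overlap for 31.6% of genes. Outside EC-like cells, whose share of the class differed between the groups, 0.0117% of genes were DEGs, from fewer cells, and the list had 9 of 14 genes higher with a median of 0.07.

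In stromal-like cells 5 of 17 pathway genes did not overlap, a share close to the 31.6% of all genes in the class. SIGIRR, an inhibitory receptor of the family, had 37.0, 29.6 and 32.6 CPM in control 1, 2 and 3 and 57.9, 146 and 56.0 CPM in asthma 8, 10 and 11, a log2 fold change of 1.12 (SE 0.39, edgeR adjusted p = 0.167) with asthma 10 far above the rest. GSDMD had 34.2, 27.1 and 41.6 CPM against 75.5, 63.8 and 56.0 CPM, a log2 fold change of 0.65 (SE 0.22, edgeR adjusted p = 0.161). Outside EC-like cells the groups overlapped for both, with log2 fold changes of 0.23 for SIGIRR and 0.27 for GSDMD. TRAF6, a ubiquitin ligase downstream of IL1R1, had a log2 fold change of 0.50 over all stromal-like cells and of -0.70 in epithelial-like cells, without overlap in either class. CASP4, which senses bacterial lipopolysaccharide inside cells, was highest in the asthma libraries in both granulocyte-like cells (108, 126 and 97.8 against 254, 137 and 314 CPM, log2 fold change 1.01) and monocyte-like cells (178, 115 and 181 against 213, 226 and 228 CPM, log2 fold change 0.43). The share of genes without overlap was 8.68% in granulocyte-like and 13.4% in monocyte-like cells, and the edgeR adjusted p of CASP4 was 0.9999 and 0.693.

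In macrophage-like cells, where 13.8% of genes had groups without overlap, P2RX7, an ATP-gated channel upstream of NLRP3, had 11.6, 7.94 and 8.32 CPM against 13.5, 14.4 and 13.5 CPM (log2 fold change 0.45, edgeR adjusted p = 0.869). CASP8 had log2 fold changes of 0.31 in macrophage-like and -0.76 in B-like cells, without overlap in either. In B-like cells it was at 90.5, 73.2 and 99.8 CPM in the control libraries and 49.9, 58.9 and 53.1 CPM in the asthma libraries (edgeR adjusted p = 0.684), and groups did not overlap for 11.4% of genes. NEK7, a partner of NLRP3, had a log2 fold change of 0.33 in B-like and 0.49 in epithelial-like cells. TXNIP, another partner, had 0.43 in dendritic-like cells. NAIP had -0.52 in granulocyte-like cells, AIM2 -0.68 in plasma-like cells without asthma 8, which had too few of these cells, and IRAK2 -0.55 in whole libraries, each without overlap and none a DEG. Groups did not overlap for 14.7% of genes in plasma-like cells and for 19.0% in whole libraries.

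Genes that IL-1 signalling is known to induce were described as a second list of 24, of which 22 had a row. In the classes none of 106 tests was a DEG by edgeR, while DESeq2 called 5, PTGS2 in monocyte-like and stromal-like cells, CXCL1 in monocyte-like, CXCL3 in macrophage-like and SOD2 in dendritic-like cells. With no filter on low counts edgeR called 11 of 180, beside the 0.886% of all genes in that setting. DESeq2 called 0.899% of all genes in the classes and 4.95% in stromal-like cells. At an unadjusted p under 0.05 there were 20, 6 higher and 14 lower, where 8.01% of all genes were, and 4 of the 20 lay in stromal-like cells, where 19.2% were. In whole libraries edgeR called none of 19, with 3 at an unadjusted p under 0.05 (12.9% of all genes), and DESeq2 called ICAM1, as it did 4.52% of genes. The list leaned down in monocyte-like cells, where 12 of 14 genes had a lower fitted level in the asthma group and the median log2 fold change was -0.68, and in epithelial-like cells with 13 of 14 and -0.63, against medians of 0.01 and -0.01 for all genes. Without the monocyte-like sub-cluster led by CXCL3, THBS1 and EREG it was 10 of 12 and -0.45. Without the one led by S100A9 and S100A8 it was 10 of 12 and -0.60. In epithelial-like cells other than AT1-like it was 11 of 14 and -0.40. Control 3 stood apart in epithelial-like cells, of which 71.1% were basal-like there and 6.73% to 13.1% in the other libraries. The summed level of the targets in that class was 1202, 784 and 3302 CPM in control 1, 2 and 3 and 1303, 1381 and 827 CPM in asthma 8, 10 and 11, with overlap, and the part of the basal-like share in it was not tested. It leaned up in stromal-like cells with 9 of 13 higher and a median of 0.47, and with 8 of 12 and 0.37 outside EC-like cells. PTGS2, the target that DESeq2 called there, had 64.4, 23.4 and 65.8 CPM in the control libraries and 21.0, 29.3 and 25.6 CPM in the asthma libraries, a log2 fold change of -1.28 (SE 0.33, edgeR adjusted p = 0.0947), and one of -0.71 outside EC-like cells.

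CXCL1, a neutrophil-attracting chemokine, was the clearest target in monocyte-like cells, with 26.8, 14.4 and 12.6 CPM in control 1, 2 and 3 and 2.77, 1.54 and 2.62 CPM in asthma 8, 10 and 11. The log2 fold change was -2.88 (SE 0.43) with an adjusted p of 0.122 by edgeR and 0.00161 by DESeq2, from 126 UMIs. In stromal-like cells it had 2.74, 2.47 and 4.74 CPM against 31.8, 17.6 and 6.72 CPM, a log2 fold change of 2.07 (SE 0.69, edgeR adjusted p = 0.158). Outside EC-like cells, where it did not pass the filter on low counts, it was at 2.88, 2.55 and 4.77 CPM against 39.8, 7.06 and 7.48 CPM. PTGS2, the inducible cyclooxygenase, had 514, 233 and 298 CPM against 184, 120 and 141 CPM in monocyte-like cells, a log2 fold change of -1.29 (SE 0.29, edgeR adjusted p = 0.423, DESeq2 adjusted p = 0.00333). CXCL3 in macrophage-like cells had 432, 320 and 389 CPM against 97.6, 232 and 119 CPM, a log2 fold change of -1.44 (SE 0.34, edgeR adjusted p = 0.730, DESeq2 adjusted p = 0.00646). All 3 genes had every asthma library on 1 side of every control library in these classes. With the sub-cluster led by CXCL3, THBS1 and EREG left out, PTGS2 in monocyte-like cells had 94.0, 232 and 296 CPM against 185, 107 and 137 CPM, and the groups overlapped. In T and NK-like cells CXCL3 (log2 fold change -2.15, from 91 UMIs) and the NF-kappa B inhibitor TNFAIP3 (-0.46) were also without overlap, where 10.7% of genes were.

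On the other side, ICAM1, an adhesion molecule, had 37.2, 36.2 and 42.8 CPM in control libraries and 76.4, 63.1 and 51.4 CPM in asthma libraries over all cells, a log2 fold change of 0.57 (SE 0.15, adjusted p = 0.239 by edgeR and 0.0432 by DESeq2). In macrophage-like cells it had a log2 fold change of 0.67 and BIRC3, an inhibitor of cell death, one of 0.58, and BIRC3 in stromal-like cells had 0.66, each without overlap, where 13.8% of all genes in macrophage-like and 31.6% in stromal-like cells were. SOD2, a mitochondrial enzyme against superoxide, had 135, 157 and 115 CPM against 229, 725 and 272 CPM in dendritic-like cells, a log2 fold change of 1.52 (SE 0.39, adjusted p = 0.505 by edgeR and 0.0197 by DESeq2), with asthma 10 far above the others. CXCL8 in epithelial-like cells had 141, 91.8 and 1035 CPM against 53.5, 80.4 and 16.3 CPM, a log2 fold change of -3.09 (SE 0.92, edgeR adjusted p = 0.659) to which control 3 contributed most. In granulocyte-like cells NFKBIZ had a log2 fold change of -0.35 and PTGS2 one of -0.28.

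A list of 21 immediate-early genes, which respond to handling of cells as well as to stimulation, was read beside the targets, and 18 of them had a row. In whole libraries 18 of 18 had a lower fitted level in the asthma group with a median log2 fold change of -0.40, in macrophage-like cells 16 of 18 with -0.37 and in epithelial-like cells 17 of 17 with -0.86. In stromal-like cells, where the targets leaned up, 13 of 17 were lower with a median of -0.17, in T and NK-like cells 14 of 18 with -0.20, and in MC-like cells 7 of 12 were higher with 0.13. In monocyte-like cells, where the targets leaned down, 11 of 17 were lower with a median of -0.18, and in B-like cells 15 of 15 with -0.46. The summed level of the list in whole libraries was 9989, 8252 and 10477 CPM in control 1, 2 and 3 and 7566, 10484 and 5748 CPM in asthma 8, 10 and 11. Asthma 11 was lowest and asthma 10 as high as control 3. In whole libraries none was a DEG by edgeR, with 4 at an unadjusted p under 0.05, and DESeq2 called JUND (log2 fold change -0.55 by edgeR). None of 154 tests in the classes was a DEG by edgeR and 3 were by DESeq2, with 22 at an unadjusted p under 0.05, 21 of them lower, where 0.899% of all genes were called by DESeq2 and 8.01% had such a p. The part of this list in the values of the IL-1 targets was not tested.

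The share of a member's UMIs in its leading class did not separate the groups for any of the 8 genes, with adjusted p from 0.8 to 0.9 by exact permutation tests, two-sided. For NLRP3, monocyte-like cells held 41.6%, 47.6% and 32.9% in control 1, 2 and 3 and 25.1%, 8.47% and 62.9% in asthma 8, 10 and 11. For IL1R2, granulocyte-like cells held 26.6%, 32.2% and 13.6% against 44.5%, 49.1% and 23.0%. Asthma 11 was the highest library for NLRP3 and the lowest asthma library for IL1R2.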

How the data were processed

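Per the submitters' labels and the file headers, the authors aligned reads of the 10x libraries to macFas6 with Cell Ranger (3.1.0 in the methods, 4.0.0 in the file headers, 2.1.1 in the submitters' processing notes) and the deposited values are UMI counts of each gene in each barcode, without normalization. A barcode was retained with over 500 but under 5000 genes, a minimum of 500 UMIs, and no more than 25% of UMIs from 37 mitochondrial genes. Counts were scaled to 10000 per cell, log-transformed and clustered without the IL-1 pathway genes (2000 variable genes, 10 principal components, 20 neighbours, Leiden resolution 0.8, scanpy 1.11.5). Classes and sub-clusters were named from fixed markers. The 4 macrophage-like sub-clusters scored as interstitial macrophage are called by their leading genes, a choice made after seeing that CCL17 and CLEC10A led the largest. Doublets were scored with Scrublet and kept, and 793 were removed in an alternative. Counts were summed per library and class (at least 10 cells) and tested with edgeR 4.0.16 in R 4.3.3 (TMM, filterByExpr), with DESeq2 1.42.0 as an alternative, and single values with exact permutation tests (scipy 1.17.1). The edgeR step was tested on simulated data.

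The genes and lists were chosen with earlier results of these data known. Members are named in every class where they were tested, some with the range of their fold changes. Of the pathway and target lists, genes past the threshold and otherwise up to 5 per class with the largest change among those without overlap between groups are named, and for likeness the closest 3 genes with at least 200 UMIs. PYCARD, MYD88 and other list members given without values, and CASP8 in whole libraries, fall outside this rule. Subsets of the dendritic, epithelial, monocyte, macrophage and stromal classes were added after seeing the data. Alternatives tried were 10% as the mitochondrial limit, a minimum of 200 genes without an upper limit, doublets removed, resolution 1.6, IL-1 pathway genes kept for clustering, no filter on low counts, all deposited barcodes, other pseudocounts (1 UMI for ratios and 10 CPM for levels) and each library left out in turn. Depth limits precision where a class holds few UMIs of a gene, and shares of cells cover counting error only. Sequences were not used here.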

Additional observations from a re-analysis of the deposited data

Results flagged for a closer look

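Genes are listed here where every asthma library lay below every control library in one class and above them in another. CXCL1 had a log2 fold change of -2.88 in monocyte-like and 2.07 in stromal-like cells. CASP8 had one of -0.76 in B-like and 0.31 in macrophage-like cells, and TRAF6 one of -0.70 in epithelial-like and 0.50 in stromal-like cells. The difference between the classes was not tested for any of them, and none was a DEG in either class by edgeR. In stromal-like cells, groups did not overlap for 31.6% of all genes. EC-like cells were 2.38% to 10.2% of the class in the control libraries and 29.2% to 55.0% in the asthma libraries. That name leaves out the sub-cluster led by TAC1, ACKR1, INHBA and SELP.

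IL1RN in the 1599 cells of mixed sub-clusters, which the sums over whole libraries include but no class does, was at 18.9, 21.9 and 15.6 CPM in control 1, 2 and 3 and 22.3, 22.5 and 29.8 CPM in asthma 8, 10 and 11. The lowest asthma library exceeded the highest control library by less than 1 CPM.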

How the results depend on the processing

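The number of DEGs over all classes was 199 in the reported setting, 635 with DESeq2, 1364 with no filter on low counts and 132 with a mitochondrial maximum of 10%, and 5 to 392 with single libraries left out, the fewest without control 3 and the most without asthma 11. In whole libraries it was 12, against 647 with DESeq2, 45 with no filter, 7 with at least 200 genes and no maximum, 6 with all deposited barcodes and 0 to 11 with single libraries left out, 0 without control 1 and without asthma 10. Member results that were DEGs in a class numbered 0 in the reported setting, with DESeq2, under the other cell and cluster settings and with any library left out. With no filter on low counts they were 5 of 78, where 0.886% of all genes in the classes were DEGs. All 5 lay in monocyte-like and dendritic-like cells, where 1.12% and 1.36% of genes were. Among the IL-1 targets in stromal-like cells, edgeR called PTGS2, lower, with doublets removed (213 DEGs in that class) and without control 2 (41), and CXCL1 and ICAM1, higher, without asthma 11 (381). With single libraries left out it called 0 to 2 target and 0 to 2 immediate-early tests in the classes, and with no filter 11 and 12. The cause of these differences was not tested. Among 46 member fold changes, 25 changed sign in at least 1 of the planned settings, 60 of 585 values in all, and the largest of the 25 was 0.73 on the log2 scale in size. None of the member fold changes that the report prints with a standard error for a whole class changed sign in a planned setting. IL1RN in dendritic-like cells was reversed only within the CCL17 and FCER1A sub-cluster (-0.039), NLRP3 and IL18 in macrophage-like cells within the CCL17 and CLEC10A sub-cluster (-0.046 and -0.20), SIGIRR and TRAF6 in stromal-like cells within EC-like cells (-0.90 and -1.33, in a fit that drops control 3 for its 9 cells), and AIM2 in plasma-like cells with at least 200 genes and no maximum (0.028).

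The log2 difference of the IL1RN to IL1B ratio in monocyte-like cells was 0.16 with a mitochondrial maximum of 10% and 0.32 with at least 200 genes, and in macrophage-like cells -0.52 at resolution 1.6. The difference in the share of IL1A UMIs in macrophage-like cells was -4.63 percentage points with the pathway genes kept for clustering. Of neighbouring pairs in the order of classes, 13 or 14 had p = 0.03125 in every setting tried (exact sign-flip permutation test). The leading class was the same for 6 of 8 genes in these settings. It moved from MC-like to epithelial-like for IL1R1 with the pathway genes kept and from dendritic-like to T and NK-like for IL18R1 with doublets removed. No paired analysis was possible because the groups share no replicate numbers.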

Other observations

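Barcodes with at most 500 genes, which the thresholds removed, held 14.5% to 27.2% of the IL1R2 UMIs of a library but 1.5% to 5.7% of all its UMIs. IL1R2 stood in them at 209, 22.2 and 103 CPM in control 1, 2 and 3 and at 51.1, 63.2 and 103 CPM in asthma 8, 10 and 11.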
